A study of Mus musculus with 48 samples.

Results

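Genes of Wnt and beta-catenin signalling, 10 in number, were followed in the 4 cell types of the neurovascular unit (NVU), namely endothelial cells, pericytes, astrocytes and microglia. They were the ligand *Wnt7a*, the receptors *Fzd4* and *Lrp6*, the transducer *Ctnnb1*, the transcription factors *Lef1* and *Tcf7*, the feedback and inhibitor genes *Axin2*, *Nkd1* and *Apcdd1*, and the endothelial transcription factor *Sox17*. Each was found by its symbol in the deposited table, and all 10 were present among its 24973 genes. The libraries came from adult male wild-type C57BL/6 mice whose middle cerebral artery had been occluded for 1 h and reperfused for 23 h. Cells of the ipsilateral (ischemic) and contralateral (control) hemispheres were sorted separately, which gave 8 groups of 6 libraries, each from a pool of 3 to 4 mice. The reference was therefore the contralateral hemisphere of operated mice, not the brain of sham-operated mice. Endothelial cells had been sorted by VE-cadherin without the mural proteins NG2 and PDGFR-beta, pericytes by both mural proteins, astrocytes by ACSA2, and microglia by CD11b with low CD45.

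In canonical Wnt signalling, a Wnt ligand bound to a Frizzled receptor and an LRP co-receptor stops the destruction complex, built on Axin and APC, from marking beta-catenin for degradation. Beta-catenin then enters the nucleus and acts with the transcription factors LEF1 and TCF7, and *Axin2*, *Nkd1*, *Apcdd1* and *Lef1* itself are known target genes, most of which restrain the pathway. In the brain, Wnt7a and Wnt7b from neural cells and norrin acting on Fzd4 drive this pathway in endothelial cells, where it induces and maintains the blood-brain barrier.

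The sum of normalized counts was 10549900 to 16942165 per library, and the reads counted on genes were estimated from the spacing of low values at 4900000 to 20200000, with a median of 11950000. A floor of 3 counted reads was worth no more than 8 normalized counts in any library and covers the error of counting alone. The sample titles and the column names swapped pericytes and microglia in 12 ipsilateral libraries, and the column names were used. By these names, each of 16 cell type markers was higher in every library of its own cell type than in every library of the other cell types. Replicates 5 and 6 differed from replicates 1 to 4 in the microglial marker RNA of the other cell types. The summed level of *Aif1*, *Tmem119*, *Cd68* and *Csf1r* in ipsilateral endothelial cells ranged from 2863 to 21121 normalized counts in replicates 1 to 4 and from 276 to 316 in replicates 5 and 6. Among contralateral endothelial cells, replicate 2 held the lowest values of the group for *Fzd4*, *Ctnnb1*, *Nkd1* and *Sox17* and the highest for *Axin2*.

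The genes lie as follows in the coordinates of the deposited table (GRCm38). *Axin2* (ENSMUSG00000000142) is on the plus strand of chromosome 11 from 108920349 to 108950783 and *Tcf7* (ENSMUSG00000000782) on the minus strand of the same chromosome from 52252371 to 52283014. *Lef1* (ENSMUSG00000027985) is on chromosome 3 from 131110471 to 131224356 (plus), *Fzd4* (ENSMUSG00000049791) on chromosome 7 from 89404355 to 89413134 (plus), *Ctnnb1* (ENSMUSG00000006932) on chromosome 9 from 120933400 to 120960507 (plus) and *Nkd1* (ENSMUSG00000031661) on chromosome 8 from 88521354 to 88594884 (plus). *Lrp6* (ENSMUSG00000030201) is on chromosome 6 from 134446476 to 134566913 (minus), *Wnt7a* (ENSMUSG00000030093) on the same chromosome from 91363981 to 91411363 (minus), *Sox17* (ENSMUSG00000025902) on chromosome 1 from 4490931 to 4497354 (minus) and *Apcdd1* (ENSMUSG00000071847) on the plus strand of chromosome 18. *Lef1* and *Tcf7* each overlap 2 other genes of the table and *Nkd1* overlaps 1. Reads that touched several genes were excluded by the authors, so the levels of these 3 genes are uncertain to that extent.

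*Axin2* and *Lef1* are the members best known as targets of beta-catenin itself, and the bases upstream of their starts are shown for that reason. The 250 bases before each RefSeq start (GRCm38.p6) were searched on both strands for CTTTGA or CTTTGT, the core that LEF1 and TCF proteins bind, and capitals mark a match.

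*Axin2*, chr11:108920099-108920348, plus strand: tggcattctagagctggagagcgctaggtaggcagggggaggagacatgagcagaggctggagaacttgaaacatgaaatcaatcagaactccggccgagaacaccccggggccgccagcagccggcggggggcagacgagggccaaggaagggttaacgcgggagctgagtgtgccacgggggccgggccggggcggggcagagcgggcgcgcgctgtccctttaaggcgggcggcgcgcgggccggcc

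*Lef1*, start 1, chr3:131110047-131110296, plus strand: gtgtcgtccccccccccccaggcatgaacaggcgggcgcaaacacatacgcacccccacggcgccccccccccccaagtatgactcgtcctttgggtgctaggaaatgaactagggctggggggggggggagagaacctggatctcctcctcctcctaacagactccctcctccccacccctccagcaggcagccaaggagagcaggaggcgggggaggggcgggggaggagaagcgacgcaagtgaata

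*Lef1*, start 4, within the gene, chr3:131156044-131156293, plus strand: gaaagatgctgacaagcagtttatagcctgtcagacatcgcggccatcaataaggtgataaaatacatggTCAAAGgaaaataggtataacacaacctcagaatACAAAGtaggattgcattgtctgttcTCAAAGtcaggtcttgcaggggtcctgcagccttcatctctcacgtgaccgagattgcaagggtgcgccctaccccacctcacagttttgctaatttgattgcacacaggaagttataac

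Windows were found for 7 of the 10 genes, with 12 starts, and 1 of the 12 windows held a match. It was that of the start 4 of *Lef1*, with 3 matches, none of them in an annotated exon. Of all 32851 windows of this length, 27.62% held a match, and the count among the members is given as a description. No window was found for *Lrp6*, *Apcdd1* or *Sox17*.

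The first question was in which NVU cells the pathway genes are found, and it was addressed in the contralateral hemisphere. The endothelial cells held the highest mean of 8 genes, the pericytes that of *Nkd1* and the astrocytes that of *Wnt7a*. Levels were compared by limma in a fit of all 48 libraries on log2(normalized count + 1), which understates differences of low genes, with Benjamini-Hochberg adjustment over the 15003 genes tested in each contrast. Of 60 contrasts between cell types, 6 for each gene, 41 had an adjusted p of at most 0.05. Between endothelial cells and pericytes this held for 6 of the 10 genes, all higher in endothelial cells, and for 35.4% of all genes. Between endothelial cells and astrocytes it held for 9 of the 10, of which *Wnt7a* was higher in astrocytes and the other 8 in endothelial cells, and for 50.1% of all genes. Between endothelial cells and microglia it held for 8 of the 10, all higher in endothelial cells, and for 42.6% of all genes. Among the remaining pairs it held for 5 of the 10 between pericytes and astrocytes (46.3% of all genes), 7 between pericytes and microglia (48.9%) and 6 between astrocytes and microglia (51.7%).

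**Figure D1:**
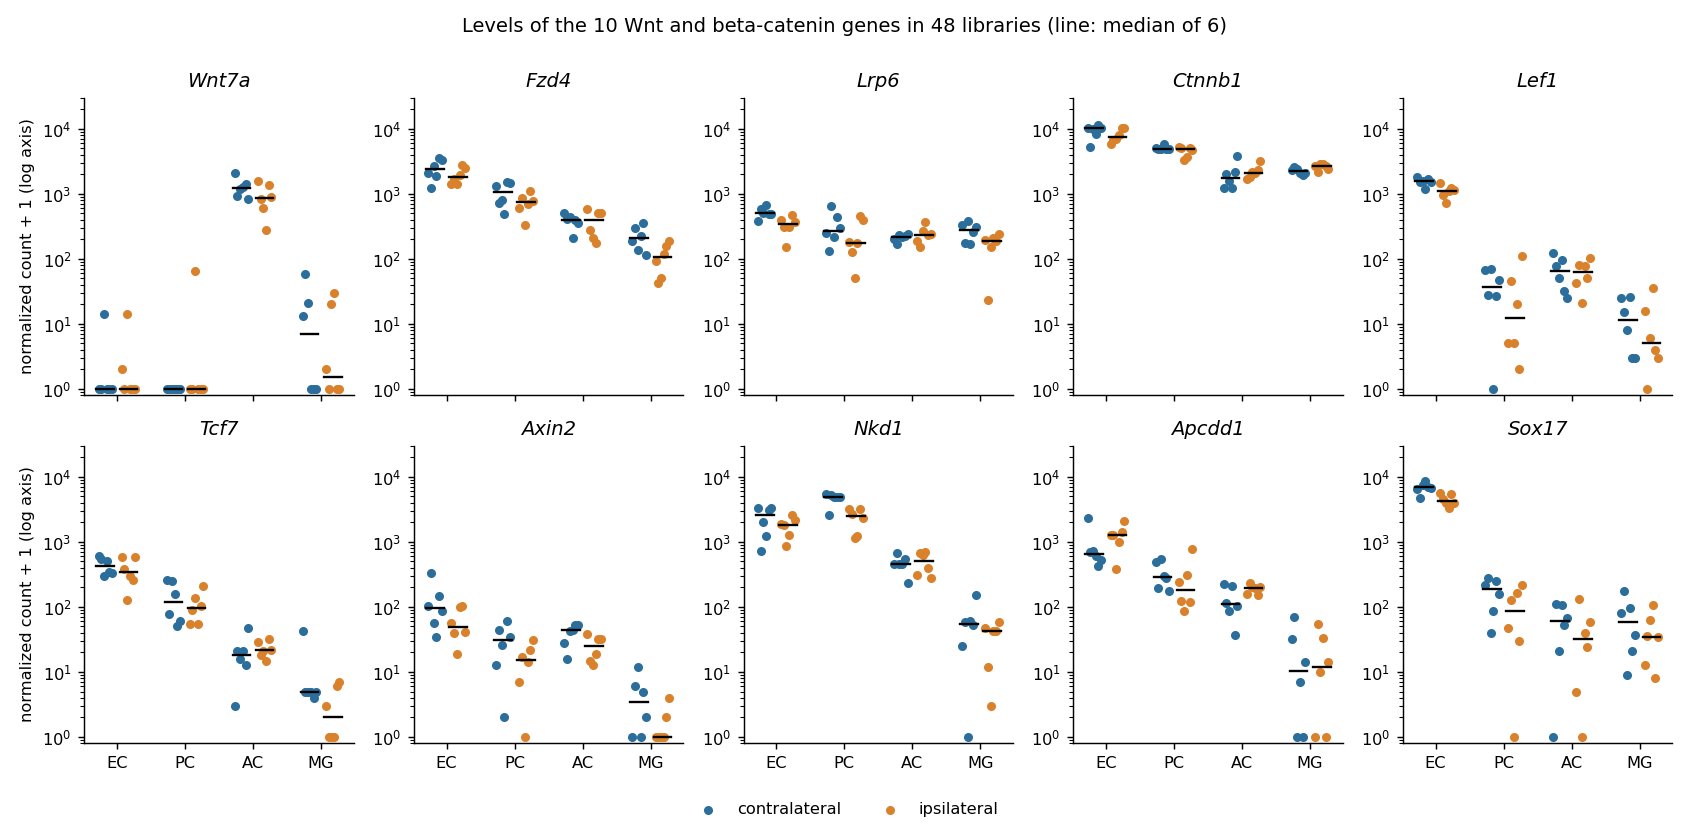
Normalized count plus 1 (log axis) of the 10 genes in every library, by cell type (EC, endothelial cells; PC, pericytes; AC, astrocytes; MG, microglia) and hemisphere, with the median of 6 libraries as a line. *Lef1* and *Sox17* stood apart in endothelial cells and *Wnt7a* in astrocytes. The groups of *Lrp6* lay closer together. Contralateral endothelial cells (374 to 669) overlapped with contralateral microglia (170 to 382) and with contralateral (132 to 640) and ipsilateral pericytes (49 to 457). They did not overlap with contralateral astrocytes (167 to 239), ipsilateral astrocytes (149 to 371) or ipsilateral microglia (22 to 238). This is a description, since the share of all genes that separate in this way was not counted.

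*Wnt7a*, the ligand, had by far its highest level in the sorted astrocytes. Those libraries also held marker RNA of other glia. The oligodendrocyte precursor markers *Pdgfra*, *Olig1*, *Olig2* and *Sox10* summed to between 3361 and 18244 normalized counts in contralateral astrocytes, against at most 2169 elsewhere on the contralateral side. The astrocyte markers *Gfap*, *Aldh1l1*, *Slc1a3* and *Aqp4* summed to between 57129 and 114614 in the same libraries (median 85602). The part of other glia in the astrocyte levels of *Wnt7a*, and of *Wnt7b* and *Ndp* given last, was not tested. *Wnt7a* in contralateral astrocytes ranged from 843 to 2088 (median 1228) normalized counts. It was listed at 0 in 6 of 6 contralateral libraries of pericytes, in 5 of 6 of endothelial cells and in 3 of 6 of microglia, where the highest value was 57. Astrocytes exceeded microglia, the next in order, by 7.95 on the log2 scale (SE 0.99, limma adjusted p = 4.28e-09), in a contrast with microglia near the floor. The steps from microglia to endothelial cells and on to pericytes did not pass the test (limma adjusted p = 0.174 and 0.667). *Wnt7b* and *Ndp*, which codes for norrin, were looked up after their values were seen. Both also had their highest contralateral mean in astrocytes, at 3588 and 1407 normalized counts, with at most 29.8 and 26.7 in the other contralateral groups.

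*Fzd4*, a receptor of norrin, formed a graded series in which every step passed the test. Contralateral endothelial cells ranged from 1241 to 3593 (median 2380.5) normalized counts and pericytes from 494 to 1504 (median 1051.5). Astrocytes ranged from 209 to 513 (median 400.5) and microglia from 114 to 356 (median 205), so that neighbouring groups overlapped although their means differed. The steps were 1.255 (SE 0.36, limma adjusted p = 0.00449), 1.38 (SE 0.36, adjusted p = 0.00136) and 0.88 (SE 0.36, adjusted p = 0.0355) on the log2 scale.

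*Lrp6*, the co-receptor, was far more even. Its contralateral means lay between 212 ± 25.7 normalized counts in astrocytes and 518 ± 101 in endothelial cells (SD, n = 6), with 327 ± 183 in pericytes and 270 ± 87.0 in microglia. No neighbours in this order differed (limma adjusted p = 0.137, 0.783 and 0.609), and of the 6 contrasts that of endothelial cells with astrocytes passed the test. With the replicate block, that of endothelial cells with microglia passed as well (limma adjusted p = 0.0386, and 0.0597 without it).

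*Ctnnb1*, which codes for beta-catenin, was abundant in all 4 cell types. Contralateral endothelial cells ranged from 5207 to 11378 (median 10104.5) normalized counts, pericytes from 4865 to 5910 (median 4921), microglia from 1963 to 2569 (median 2215.5) and astrocytes from 1222 to 3765 (median 1773.5). Endothelial cells exceeded pericytes by 0.82 on the log2 scale (SE 0.20, limma adjusted p = 0.000734) and pericytes exceeded microglia by 1.19 (SE 0.20, adjusted p = 1.65e-06), while the step from microglia to astrocytes did not pass (adjusted p = 0.24). The pericyte libraries lay close together, 5 of 6 between 4865 and 5088.

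*Lef1* and *Tcf7* code for the transcription factors that beta-catenin joins on DNA, and they differed in how far they reached beyond endothelial cells. *Lef1* ranged from 1186 to 1813 (median 1551.5) normalized counts in contralateral endothelial cells, from 24 to 123 (median 63) in astrocytes, from 0 to 68 (median 36.5) in pericytes and from 2 to 25 (median 10.5) in microglia. The endothelial libraries did not overlap with any other library, and the step to astrocytes was 4.74 on the log2 scale (SE 0.83, limma adjusted p = 5.34e-06), whereas the later steps did not pass the test (adjusted p = 0.206 and 0.196). *Tcf7* ranged from 296 to 600 (median 425) in endothelial cells and from 49 to 258 (median 116.5) in pericytes, 1.87 lower on the log2 scale (SE 0.60, adjusted p = 0.0116). It was lower again in astrocytes, from 2 to 46 (median 17.5), by 2.92 (SE 0.60, adjusted p = 7.33e-05), and in microglia 4 of 6 contralateral libraries were at or below the floor.

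*Axin2*, *Nkd1* and *Apcdd1* are induced by the pathway and restrain it, by rebuilding the destruction complex, by binding Dishevelled and at the cell surface, respectively. *Axin2* was the least abundant of them. It ranged from 34 to 330 (median 95) normalized counts in contralateral endothelial cells, from 15 to 52 (median 42.5) in astrocytes and from 1 to 59 (median 29.5) in pericytes, 3 groups whose neighbours did not differ (limma adjusted p = 0.103 and 0.346). In microglia its highest contralateral value was 11, and the step down from pericytes passed the test at 2.73 on the log2 scale (SE 0.73, adjusted p = 0.00168).

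*Nkd1* was the member whose own highest mean lay in pericytes. It ranged from 2617 to 5368 (median 4936.5) normalized counts in contralateral pericytes and from 717 to 3361 (median 2566.5) in endothelial cells, and these 2 groups were not shown to differ (1.19 on the log2 scale, SE 0.67, limma adjusted p = 0.168). Astrocytes followed with from 235 to 684 (median 456.5), 2.14 below endothelial cells (SE 0.67, adjusted p = 0.00629), and microglia with from 0 to 150 (median 54.5), a further 3.92 below (SE 0.67, adjusted p = 2.74e-06). *Apcdd1* ranged from 422 to 2288 (median 649.5) in endothelial cells, from 177 to 544 (median 285.5) in pericytes and from 36 to 225 (median 108) in astrocytes, steps that did not pass (adjusted p = 0.23 and 0.141), and its highest value in microglia was 70.

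*Sox17*, a transcription factor of endothelial cells that acts with Wnt signalling and Notch in vessels, had the largest step between endothelial cells and the next cell type among the members highest in endothelial cells. It ranged from 4806 to 8477 (median 6916) normalized counts in contralateral endothelial cells and from 39 to 281 (median 188) in pericytes, a step of 5.57 on the log2 scale (SE 1.02, limma adjusted p = 1.86e-05). Microglia and astrocytes followed with at most 174 and 110, and these steps did not pass (adjusted p = 0.192 and 0.678). The contrast of pericytes with astrocytes passed with the replicate block (limma adjusted p = 0.0372) but not without it (0.0734).

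Levels of different genes can be set side by side only per length. Per kb of annotated exon, the contralateral endothelial means were 1786 normalized counts for *Ctnnb1*, 1444 for *Sox17*, 503 for *Nkd1*, 366 for *Fzd4*, 176 for *Lef1*, 167 for *Tcf7*, 68.1 for *Apcdd1*, 37.9 for *Lrp6* and 22.8 for *Axin2*. In contralateral pericytes, *Nkd1* had 1026 and *Ctnnb1* 982 on this scale, followed by *Fzd4* with 156. In contralateral astrocytes *Wnt7a* had 407 and *Ctnnb1* 383. The annotation that gave the exon lengths places *Lrp6*, *Ctnnb1* and *Apcdd1* at other coordinates than the deposited table does. Their values per kb are uncertain to that extent.

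RNA of endothelial cells in the other sorted populations was measured with *Cldn5*, *Pecam1*, *Ptprb* and *Cdh5*. Summed, these markers stood at 1.06% to 4.04% of their mean contralateral endothelial level in contralateral pericytes, at 0.21% to 1.76% in astrocytes and at 0.34% to 1.63% in microglia. None of the 4 markers was at 0 in all libraries of a group. *Sox17* stood at 0.566% to 4.08% of its endothelial level in pericytes, at 0% to 1.597% in astrocytes and at 0.116% to 2.53% in microglia, ranges that overlapped with those of the markers in each cell type. *Lef1* did so in pericytes (0% to 4.39%) and microglia (0.129% to 1.61%), but its median in astrocytes was 4.06%, above the highest marker value there. In pericytes, every contralateral library of *Fzd4* (20.1% to 61.2%), *Ctnnb1* (52.5% to 63.8%), *Apcdd1* (20.2% to 62.0%), *Tcf7* (11.2% to 58.8%), *Lrp6* (25.5% to 124%) and *Nkd1* (114% to 234%) lay above the marker range.

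**Figure D2:**
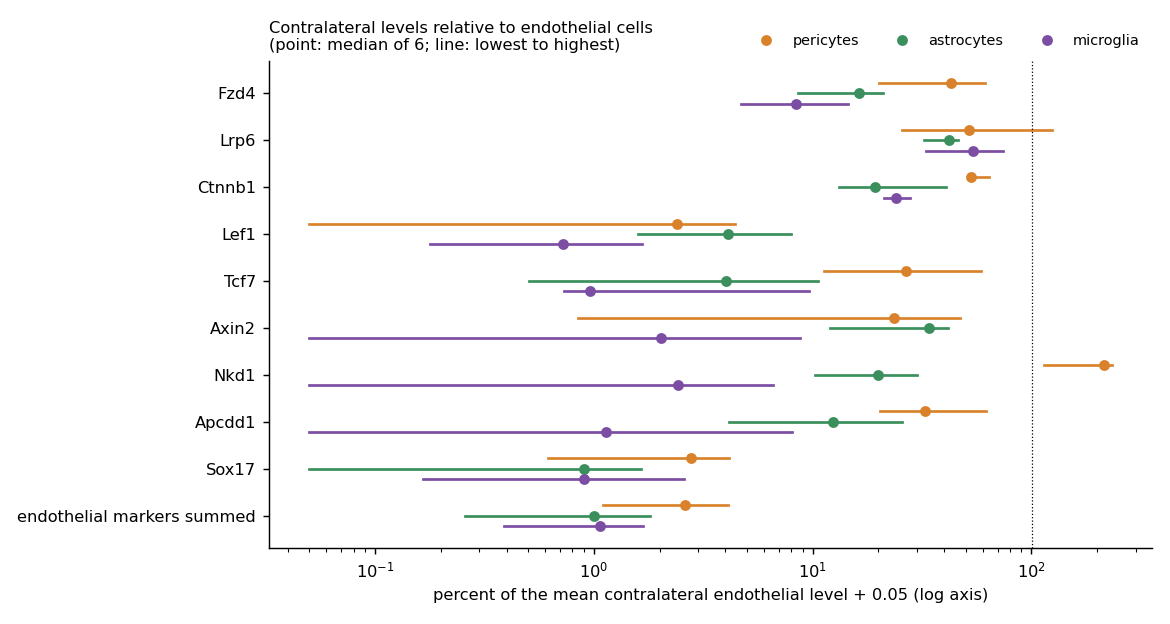
Contralateral level of 9 genes and of the summed endothelial markers in pericytes, astrocytes and microglia, as a percentage of the mean in contralateral endothelial cells plus 0.05 (log axis), with points for the median and lines from the lowest to the highest of 6 libraries. *Sox17* overlapped with the low range of the markers in all 3 cell types, whereas *Fzd4*, *Lrp6* and *Ctnnb1* lay far above it.

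The genes whose values went most closely with each member over the 48 libraries were found among 15003 genes by Pearson's r on the log2 scale, as a description, since libraries of one cell type are alike across many genes. *Sox17* was closest to *Slco1a4*, *Clec14a* and *Ptprb* (r of 0.942, 0.937 and 0.933), all endothelial genes. *Lef1* was closest to *Tshz2*, *Mindy1* and the glucose transporter gene *Slc2a1* (0.926, 0.917 and 0.915), *Ctnnb1* to *Tmod3*, *Ppfibp1* and *Esam* (0.935, 0.933 and 0.924), and *Fzd4* to *Fry*, *Snrk* and *Ripor1* (0.934, 0.93 and 0.909). *Nkd1* was closest to *Rhoj*, *Tns2* and *Cobll1* (0.927, 0.922 and 0.92), *Wnt7a* to *Plpp4*, *Kcng4* and *Egfl6* (0.941, 0.933 and 0.927), *Tcf7* to *Tsc22d1*, *Mfsd7c* and *Id1* (0.916, 0.896 and 0.891) and *Apcdd1* to *Ephb4*, *Pard3* and *Plat* (0.904, 0.896 and 0.893). *Axin2* (*Fam13c*, *Nedd9* and *Socs5*, 0.883, 0.844 and 0.838) and *Lrp6* (*Ube2v2*, *Mfap1b* and *Plekhg5*, 0.774, 0.763 and 0.728) had less close partners.

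The second question was whether these genes changed after stroke. Each cell type was fitted on its own by limma, ipsilateral against contralateral, and a gene was called regulated when 3 conditions were met. Its Benjamini-Hochberg adjusted p over all genes tested did not exceed 0.05, it changed at least 1.5-fold, and it exceeded 10 normalized counts in all 6 libraries of a hemisphere. None of the 10 genes was called in any cell type by limma, with the replicate number as a block or without it. In endothelial cells 9 were tested, 3 of which had an unadjusted p under 0.05 (11.9% of all genes had one), and 0.491% of all genes were called (0.551% with the block). In pericytes 9 were tested, 1 had an unadjusted p under 0.05 (15.4% of all genes), and 1.02% of all genes were called (1.66% with the block). In astrocytes all 10 were tested, 0 had an unadjusted p under 0.05 (9.28% of all genes), or 2 with the block (17.6%), and 0.341% of all genes were called (1.59% with the block). In microglia 8 were tested, 1 had an unadjusted p under 0.05 (28.0% of all genes), or 2 with the block (30.0%), and 10.6% of all genes were called (11.0% with the block). *Wnt7a* in endothelial cells and pericytes and *Axin2* and *Tcf7* in microglia were too low to be tested, with means under 10 normalized counts over 12 libraries. The authors, by DESeq2 with the same limits of fold change and adjusted p, reported more regulated genes in each cell type than were called here. Their pathway analysis named Wnt signalling among the pathways of endothelial cells. A gene that was not called here is therefore not shown to be unchanged.

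The log2 fold changes were below 0 for 8 of 9 genes in endothelial cells, where this held for 52.1% of all genes, for 9 of 9 in pericytes (52.5% of all genes), 5 of 10 in astrocytes (55.6%) and 6 of 8 in microglia (59.5%). Their medians were -0.35, -0.67, -0.01 and -0.60, and the medians of all genes tested were -0.03, -0.04, -0.06 and -0.18. In no cell type did the 2 hemispheres of a member separate without overlap, which is a description, since the share of all genes that separate was not counted. In sorted bulk samples, fewer cells with a transcript and less transcript per cell cannot be told apart.

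**Figure D3:**
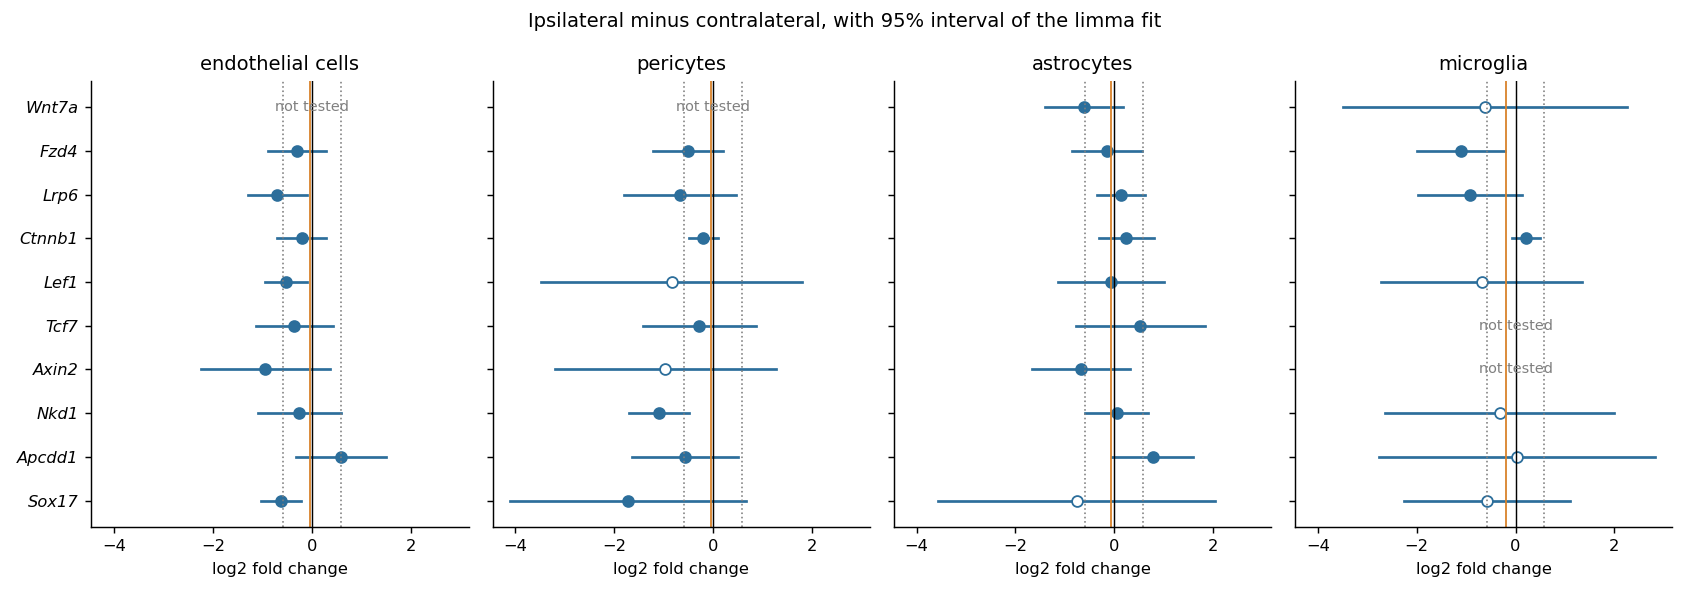
Log2 fold change, ipsilateral minus contralateral, of the 10 genes in each cell type with the 95% interval of the limma fit. Filled points mark genes with more than 10 normalized counts in all 6 libraries of a hemisphere, dotted lines a 1.5-fold change in either direction, and the orange line the median of all genes; no gene passed the adjusted test, and most intervals included 0.

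In endothelial cells, the largest changes relative to their error were those of *Sox17*, *Lef1* and *Lrp6*. *Sox17* ranged from 4806 to 8477 (median 6916) normalized counts contralaterally and from 3343 to 5548 (median 4310.5) ipsilaterally. It was lower on the ipsilateral side in 6 of 6 pairs, the ranges overlapping only through contralateral replicate 2. The log2 fold change was -0.62 (SE 0.19, 95% interval -1.03 to -0.21, limma unadjusted p = 0.006, adjusted p = 0.185), and the adjusted p lay between 0.0856 and 0.866 under the alternatives tried.

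*Lef1* ranged from 1186 to 1813 (median 1551.5) normalized counts contralaterally and from 716 to 1451 (median 1120.5) ipsilaterally, and was also lower in 6 of 6 pairs. The lowest contralateral and the highest ipsilateral libraries overlapped. Its log2 fold change was -0.53 (SE 0.20, 95% interval -0.95 to -0.11, limma unadjusted p = 0.0178, adjusted p = 0.291, between 0.27 and 0.859 under the alternatives), which is also less than 1.5-fold.

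*Lrp6* ranged from 374 to 669 (median 496.5) normalized counts contralaterally and from 152 to 473 (median 337.5) ipsilaterally, lower in 5 of 6 pairs. Its log2 fold change was -0.70 (SE 0.28, 95% interval -1.30 to -0.10, limma unadjusted p = 0.026, adjusted p = 0.335). The mean change was -0.94 in replicates 1 to 4 and -0.21 in replicates 5 and 6. Endothelial markers summed to between 63144 and 92219 contralaterally and between 50747 and 80091 ipsilaterally in these libraries. Their log2 fold changes were -0.73 (*Ptprb*), -0.16 (*Cldn5*), 0.16 (*Pecam1*) and 0.19 (*Cdh5*), none called. The neutrophil markers *S100a8*, *S100a9*, *Ly6g* and *Retnlg* summed to between 1 and 1556 and between 62 and 9343. The part of these markers in the endothelial values was not tested.

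The intervals of the remaining endothelial members included 0. *Axin2* went from from 34 to 330 (median 95) to from 18 to 103 (median 47.5) normalized counts, lower in 5 of 6 pairs, with a log2 fold change of -0.94 (SE 0.61, limma adjusted p = 0.588). Without replicate 2, whose contralateral library held 330, the value was -0.51. *Fzd4*, *Tcf7*, *Nkd1* and *Ctnnb1* had log2 fold changes of -0.30 (SE 0.27), -0.35 (SE 0.37), -0.25 (SE 0.39) and -0.21 (SE 0.23), and without replicate 2 that of *Nkd1* was -0.57 (adjusted p = 0.475).

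*Apcdd1* was the endothelial member above 0, and its replicates went different ways. Contralateral libraries ranged from 422 to 2288 (median 649.5) normalized counts and ipsilateral ones from 387 to 2111 (median 1262.5), higher in 4 of 6 pairs, with a log2 fold change of 0.59 (SE 0.43, limma adjusted p = 0.641). In replicates 1 to 4 the mean change was -0.05, and in replicates 5 and 6 it was 1.87, where those 4 libraries alone gave a call (limma adjusted p = 0.0223). The adjusted p lay between 0.0223 and 0.988 over all alternatives, and the part of the microglial marker RNA, which also split these replicates, was not tested.

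**Figure D4:**
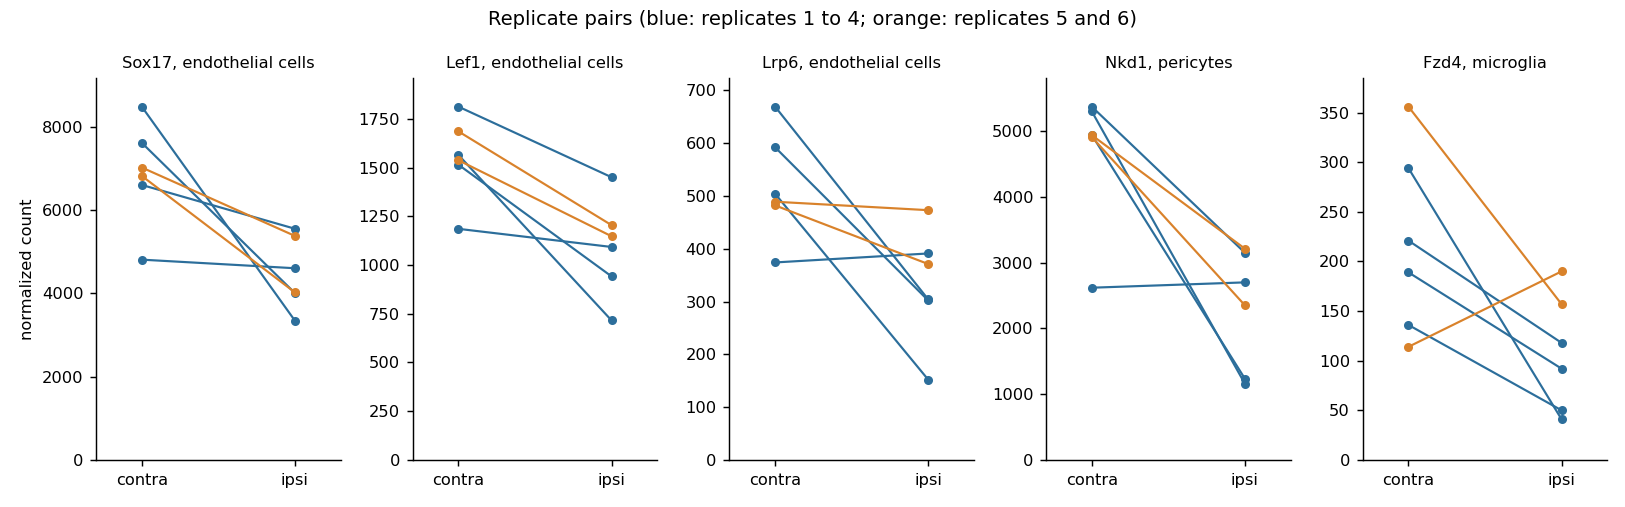
Normalized counts of the 5 combinations of gene and cell type with an unadjusted limma p under 0.05, with a line joining the contralateral and ipsilateral library of each replicate. *Sox17* and *Lef1* in endothelial cells were lower on the ipsilateral side in 6 of 6 pairs and the other 3 in 5 of 6, and none of the 5 passed the adjusted test.

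In pericytes, the largest change relative to its error was that of *Nkd1*. Contralateral libraries ranged from 2617 to 5368 (median 4936.5) normalized counts and ipsilateral ones from 1159 to 3210 (median 2524), lower in 5 of 6 pairs. Contralateral replicate 2, at 2617, lay below 3 of the ipsilateral libraries and the other 5 contralateral libraries above all of them. The log2 fold change was -1.10 (SE 0.28, 95% interval -1.71 to -0.49, limma unadjusted p = 0.0017, adjusted p = 0.0835). The adjusted p lay between 0.0587, without replicate 2, and 0.453 under the alternatives other than replicates 5 and 6 alone. In the same libraries the summed level of the pericyte markers *Pdgfrb*, *Des*, *Cd248* and *Cspg4* ranged from 44294 to 92716 contralaterally and from 34058 to 90625 ipsilaterally, and that of the microglial markers from 249 to 11003 and from 267 to 28388. The smooth muscle markers *Acta2*, *Myh11*, *Tagln* and *Cnn1* summed to more, from 305671 to 472420 contralaterally (median 419293.5) and from 140102 to 323604 ipsilaterally (median 187734), with none of the 4 at 0 throughout a group. Their log2 fold changes were -0.92 (*Acta2*), -1.48 (*Myh11*), -0.67 (*Tagln*) and -0.55 (*Cnn1*), and none was called. The part of these markers in the value of *Nkd1* was not tested.

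The other 8 genes tested in pericytes had intervals that included 0. *Fzd4* and *Ctnnb1*, the best measured, had log2 fold changes of -0.51 (SE 0.33) and -0.19 (SE 0.14), with ipsilateral libraries from 331 to 1094 (median 736) and from 3310 to 5152 (median 4886) normalized counts. *Sox17* had the value furthest from 0, -1.73 (SE 1.11, limma adjusted p = 0.487), with ipsilateral libraries from 0 to 215 (median 86.5). *Lrp6*, *Apcdd1* and *Tcf7* had -0.67 (SE 0.53), -0.56 (SE 0.50) and -0.27 (SE 0.53), and in replicates 5 and 6 alone each of these 3 was above 0.

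In astrocytes, *Wnt7a* and *Apcdd1* were the members with the smallest unadjusted p. *Wnt7a* ranged from 843 to 2088 (median 1228) normalized counts contralaterally and from 274 to 1549 (median 867.5) ipsilaterally, lower in 5 of 6 pairs, with a log2 fold change of -0.62 (SE 0.37, 95% interval -1.41 to 0.17, limma adjusted p = 0.655). The change was -0.94 in replicates 1 to 4 and 0.03 in replicates 5 and 6. *Apcdd1* went from from 36 to 225 (median 108) to from 151 to 229 (median 197), higher in 4 of 6 pairs, with a log2 fold change of 0.78 (SE 0.39, 95% interval -0.05 to 1.602, adjusted p = 0.576). With the replicate block both had an unadjusted p under 0.05 (0.043 and 0.0411) and neither passed the adjusted test (0.264 and 0.259). *Ctnnb1*, *Nkd1*, *Fzd4* and *Lrp6* had values between -0.15 and 0.24 with SE of 0.23 to 0.33, and their intervals lay between -0.85 and 0.80.

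In microglia, *Fzd4* was the member with the smallest p. It went from from 114 to 356 (median 205) to from 41 to 190 (median 105) normalized counts, lower in 5 of 6 pairs. The log2 fold change was -1.10 (SE 0.42, 95% interval -2.0 to -0.20, limma unadjusted p = 0.0194, adjusted p = 0.103). Under the alternatives other than replicates 5 and 6 alone, the adjusted p lay between 0.0542 and 0.212. With libraries rescaled within the cell type the log2 fold change was -1.04. Its mean was -1.54 in replicates 1 to 4 and -0.22 in replicates 5 and 6. *Lrp6* went from from 170 to 382 (median 280.5) to from 22 to 238 (median 189.5), with -0.93 (SE 0.50, adjusted p = 0.238). For *Lrp6* the mean was -1.18 in replicates 1 to 4 and -0.41 in replicates 5 and 6. *Ctnnb1* was the best measured, from from 1963 to 2569 (median 2215.5) to from 2145 to 2870 (median 2646.5), higher in 5 of 6 pairs, with 0.21 (SE 0.14, adjusted p = 0.326). *Lef1*, *Nkd1*, *Apcdd1*, *Sox17* and *Wnt7a* were near the floor in part of the microglial libraries, with SE of 0.79 to 1.35, so that changes of several fold were not detectable there.

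Whether the stroke change of a gene differed between cell types was tested as a difference of the log2 fold changes in the fit of 48 libraries. None of the 60 differences passed the adjusted test by limma, and 1 had an unadjusted p under 0.05, that of *Tcf7* between astrocytes and microglia (2.15, SE 0.85, limma adjusted p = 0.403). That difference rests on values near the floor, with 4 of 6 microglial libraries at or below it in each hemisphere and contralateral replicate 1 at 42. This fit kept genes by their mean over all 48 libraries. It therefore included *Wnt7a* in endothelial cells and pericytes and *Axin2* and *Tcf7* in microglia, which were too low for the separate fits. Of all genes, 0.0267% passed between endothelial cells and pericytes, 0.06% between endothelial cells and astrocytes, 0.273% between endothelial cells and microglia, 0.00667% between pericytes and astrocytes, 0.727% between pericytes and microglia, and 0.293% between astrocytes and microglia. The endothelial, pericyte and microglial values set out for single genes were therefore not shown to be particular to a cell type.

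The other genes of the pathway were taken from 6 lists of receptors, ligands, the destruction complex, nuclear partners, inhibitors and targets, and endothelial barrier genes. They held 105 names, of which 98 were in the table. In endothelial cells 0 of the 75 tested were called by limma, 11 with an unadjusted p under 0.05, and their median log2 fold change was -0.28. The 15 barrier genes, among them those for tight junctions and transporters, had a median of -0.54 with 11 below 0, and 4 had an unadjusted p under 0.05. Of all genes tested in endothelial cells, 52.1% were below 0 and 11.9% had an unadjusted p under 0.05, with a median of -0.03. With the block, 1 gene of the lists passed in endothelial cells, where 0.551% of all genes were called. *Wnt5a*, a ligand best known outside the beta-catenin branch, ranged from 579 to 1654 (median 1019) normalized counts contralaterally and from 183 to 510 (median 390) ipsilaterally, without overlap and lower in 6 of 6 pairs. Its log2 fold change was -1.48 (SE 0.32, limma adjusted p = 0.0599, and 0.0342 with the block).

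In pericytes 0 of the 79 genes tested were called with or without the block (1.66% and 1.02% of all genes). An unadjusted p under 0.05 was found for 7 (15.4% of all genes), and the median was -0.05 (-0.04 for all genes). In astrocytes 1 of 88 was called (0.341% of all genes), and 4 with the block (1.59% of all genes), with a median of -0.15 (-0.06 for all genes). *Plvap*, which codes for the diaphragm protein of fenestrated vessels, rose from 12.8 ± 7.63 to 76.3 ± 22.6 normalized counts (SD, n = 6), by 2.601 on the log2 scale (SE 0.45, limma adjusted p = 0.0235), in 6 of 6 pairs and without overlap, and the call was lost when any 1 replicate was left out (adjusted p = 0.0523 to 0.177). The endothelial markers summed to between 157 and 1318 contralaterally and between 122 and 1577 ipsilaterally in the same astrocyte libraries, and contralateral endothelial cells had a mean of 1706 for *Plvap*. With the block, *Myc* and *Ccnd1*, targets of Wnt signalling and of many other pathways, rose by 1.57 (SE 0.40, adjusted p = 0.0284 with the block and 0.167 without) and 1.54 (SE 0.36, 0.0338 and 0.122). *Sfrp5*, a secreted Wnt inhibitor, fell by 0.88 (SE 0.43, 0.0403 and 0.572). *Myc* and *Ccnd1* had contralateral means of 2662 and 870 in microglia against 236 and 157 in astrocytes, and the microglial markers summed to between 611 and 13973 contralaterally and between 368 and 10617 ipsilaterally in astrocytes; their part in these values was not tested.

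In microglia 5 of the 62 genes tested, or 8.06%, were called, all lower ipsilaterally, beside 10.6% of all genes, of which 834 of 1404 were lower. In the same libraries the microglial markers summed to between 180699 and 227678 normalized counts contralaterally and between 91419 and 163197 ipsilaterally, and the neutrophil markers *S100a8*, *S100a9*, *Ly6g* and *Retnlg* to between 59 and 896 and between 1221 and 17722, each without overlap of the hemispheres, with 1 of the 4 neutrophil markers at 0 in every contralateral library. Of these, *Tmem119* and *Csf1r* fell by 1.603 and 1.10 on the log2 scale, while *S100a8*, *S100a9* and *Retnlg* rose by 3.35, 3.26 and 3.36 (limma adjusted p = 0.0065, 0.0375, 0.0122, 0.00356 and 0.0145). The microglial markers *Aif1* (-0.47) and *Cd68* (0.41) went different ways and were not called (limma adjusted p = 0.292 and 0.297). The part of this shift in the microglial values, that of *Fzd4* included, was not tested. The list of nuclear partners held 3 of the 5 called genes out of 9 tested, with 9 of 9 below 0 (59.5% of all genes) and a median of -0.70 (-0.18 for all genes). *Tle3*, a Groucho co-repressor that TCF factors recruit, went from 458 to 729 (median 590.5) contralaterally to 92 to 305 (median 255) ipsilaterally, and fell by 1.51 on the log2 scale (SE 0.31, limma adjusted p = 0.00699). *Bcl9l*, a co-activator of beta-catenin, fell from 307 ± 91.3 to 119 ± 60.3, by 1.495 (SE 0.37, adjusted p = 0.0183), and *Tcf7l2*, a further TCF factor, from 887 ± 246 to 485 ± 165, by 0.88 (SE 0.25, adjusted p = 0.0351). *Csnk1e*, a casein kinase of the pathway, fell from 2015 ± 491 to 862 ± 261, by 1.24 (SE 0.22, adjusted p = 0.00279), and the junction gene *Tjp1* from 753 ± 89.8 to 415 ± 107, by 0.89 (SE 0.19, adjusted p = 0.00866). Each was lower in 6 of 6 pairs. The calls of *Tle3* and *Csnk1e* held with any 1 replicate left out, that of *Tjp1* was lost without replicate 3 (adjusted p = 0.0512), that of *Bcl9l* without replicate 3 or 4, and that of *Tcf7l2* without replicate 1, 3, 4 or 6 (adjusted p up to 0.0751 and 0.138). *Btrc*, which codes for the ubiquitin ligase subunit that recognises beta-catenin, was called with the block alone (-1.10, SE 0.41, adjusted p = 0.0426, and 0.0931 without it).

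**Figure D5:**
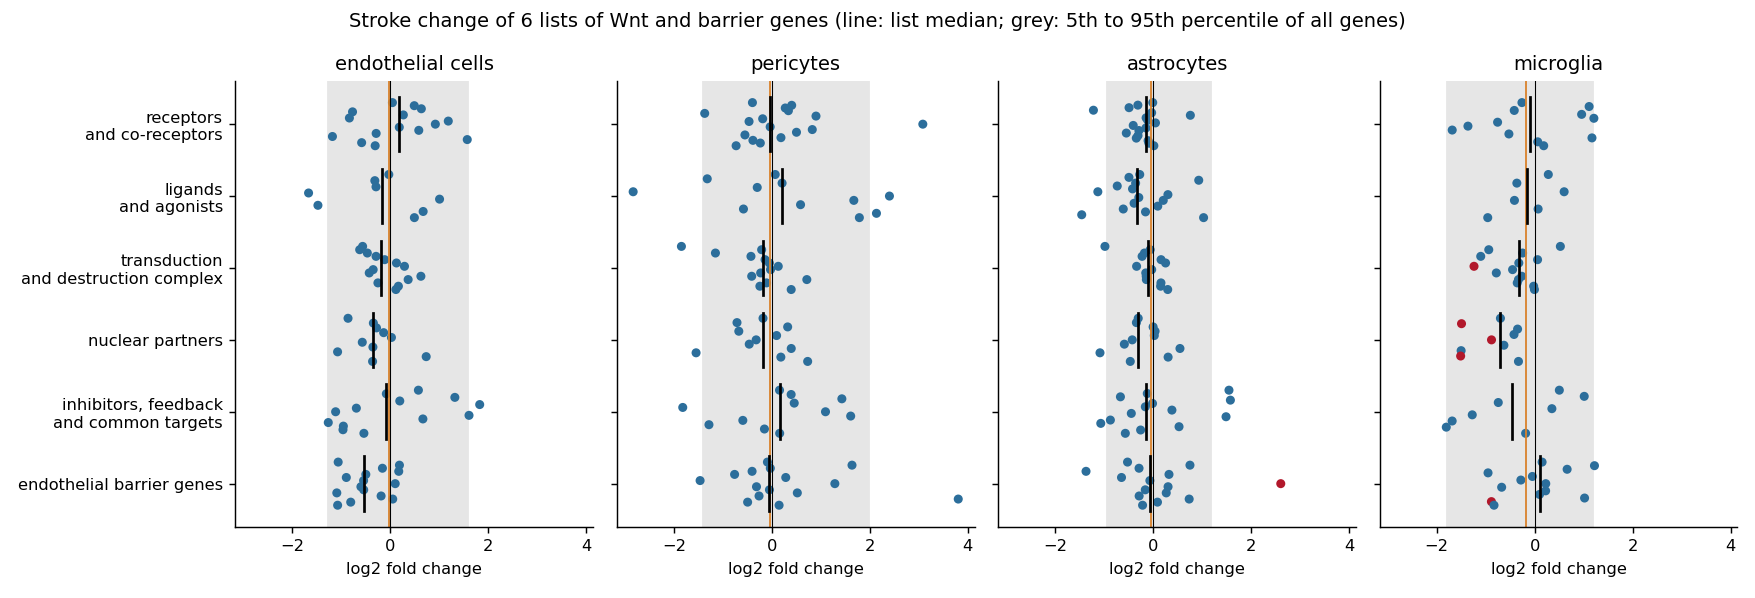
Log2 fold change after stroke of the genes of the 6 lists in each cell type, with called genes in red, list medians as black lines, the median of all genes in orange and the 5th to 95th percentile of all genes in grey. The called genes were *Plvap* in astrocytes and 5 genes in microglia, 3 of them nuclear partners.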

How the data were processed

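RNA of 4 sorted cell types was sequenced in 48 libraries, 6 for each of 8 groups. The authors trimmed the reads (Trimmomatic 0.38), aligned them to GRCm38 (STAR 2.6.1d), counted them on genes (featureCounts 1.6.3) and normalized the counts (DESeq2 1.18.1). The deposited values are normalized counts in whole numbers, here handled as a score and not as raw counts, and no count model was run on them.

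Tests were made here in R 4.3.3 with limma 3.58.1 (lmFit, eBayes with trend) on log2(value + 1), two-sided, for genes averaging 10 or more, with Benjamini-Hochberg adjustment, and tested on simulated data. Summaries and plots used Python 3.11.15, pandas 2.3.3, numpy 2.4.6 and matplotlib 3.10.9. Values per kb used exon lengths of GENCODE M21. Both hemispheres of a preparation came from the same mice, and the replicate number was taken to mark the preparation, which the labels do not state; the block on this number was an alternative. Across genes, same-numbered libraries had a mean correlation of their deviations of 0.227, 0.227, 0.38 and 0.135 in endothelial cells, pericytes, astrocytes and microglia, against -0.039, -0.045, -0.076 and -0.026 for different numbers.

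The members, the lists and the use of replicates 1 to 4 alone were chosen with earlier results of these data known. All 10 members are named, and of the lists only genes called with or without the block, at most 8 per cell type, beside *Wnt7b* and *Ndp*, and for each member the 3 genes most like it. Of the listed names, *Gpr124* (an older symbol of *Adgra2*), *Wnt1*, *Wnt8a*, *Wnt10b*, *Rspo4*, *Dkk1* and *Sost* matched no row. Alternatives were pseudocounts of 0.1 and 10, dropping the filter or raising it to 50, rescaling within the cell type, the block, a joint fit of 48 libraries, each replicate left out, and subsets of replicates. The summed level of a further marker list is not reported here.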

Additional observations from a re-analysis of the deposited data

Results flagged for a closer look

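In 80 groups of 6 libraries, 10 genes in 8 groups each, the highest or the lowest library was tested for its gap to the nearest of the others relative to the range of the group. The gap exceeded the critical value of 0.625 in 12 groups, and chance alone gives about 1 in 20.

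Of these, 6 lay at low values. *Wnt7a* reached 13 normalized counts in replicate 3 of contralateral endothelial cells and 13 in replicate 3 of ipsilateral endothelial cells, against 0 and at most 1 in the others. It reached 65 in ipsilateral pericytes replicate 3, with 0 in the other 5 libraries. The astrocyte markers *Gfap*, *Aldh1l1*, *Slc1a3* and *Aqp4* summed to 761 normalized counts in that library and to between 181 and 656 in the others. In contralateral pericytes replicate 3 they summed to 838, with *Wnt7a* at 0. The part of astrocyte RNA in the value of 65 was not tested. In contralateral microglia *Wnt7a* reached 57 in replicate 2, against at most 20. *Axin2* reached 3 in ipsilateral microglia replicate 6, against at most 1, and *Tcf7* reached 42 in contralateral microglia replicate 1, against 3 to 4.

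Among better measured values, *Axin2* reached 330 in contralateral endothelial cells replicate 2 (34 to 144 in the others) and *Apcdd1* reached 2288 in replicate 1 of the same group (422 to 725). *Apcdd1* also reached 781 in ipsilateral pericytes replicate 6 (85 to 307). *Ctnnb1* reached 5910 in contralateral pericytes replicate 4 (4865 to 5088) and 3765 in contralateral astrocytes replicate 6 (1222 to 2172). *Nkd1* was lowest in contralateral pericytes replicate 2, at 2617 (4906 to 5368), and without that replicate its log2 fold change after stroke was -1.33 with a limma adjusted p of 0.0587.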

How the results depend on the processing

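The count of members called stayed at 0 in pericytes, astrocytes and microglia under all alternatives, and in endothelial cells under all but replicates 5 and 6 alone, where it was 1 (*Apcdd1*). The contrasts of contralateral level that passed numbered 37 to 46 over the alternatives (41 as reported, 39 to 43 with a replicate left out, 43 with the replicate block), and the differences of stroke change that passed numbered 0 under each. Of the recomputed member changes, 502 kept direction and call and 22 changed sign, none of them called.

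Counts of all genes called moved by over 1.5 times as follows, and the cause was not tested. In endothelial cells (65) they were 36 with no filter, 11 with replicates 1 to 4, 452 with replicates 5 and 6, 235 in the joint fit and 10 to 84 with a replicate left out. In pericytes (139) they were 84, 31, 85, 288 and 11 to 112, and 226 with the block. In astrocytes (52) they were 34 with a pseudocount of 0.1, 32 with a mean of at least 50, 242 with the block, 0 with replicates 5 and 6, 89 in the joint fit and 12 to 61 with a replicate left out. In microglia (1404) they were 787 with replicates 1 to 4, 749 with replicates 5 and 6, 827 in the joint fit and 557 to 1909 with a replicate left out. Of the wider lists, the block called 1 gene in endothelial cells (0 without) and 4 in astrocytes (1 without), and replicates 1 to 4 called 0 in astrocytes and 2 in microglia (5 as reported). The block changed no call of a member after stroke, and of the contralateral contrasts it added *Lrp6* between endothelial cells and microglia and *Sox17* between pericytes and astrocytes.

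Sign changes with replicates 5 and 6 alone were those of *Tcf7* in endothelial cells (0.21), of *Tcf7* (1.41), *Lrp6* (0.25) and *Apcdd1* (0.46) in pericytes, and of *Lef1* (1.34), *Fzd4* (0.46), *Ctnnb1* (-0.064), *Nkd1* (-0.12) and *Wnt7a* (0.03) in astrocytes. With replicates 1 to 4 alone *Apcdd1* in endothelial cells was -0.049. In microglia *Apcdd1* was -0.007 with a pseudocount of 10 and *Nkd1* 0.14 with one of 0.1. With a replicate left out, ranges that crossed 0 were -0.69 to 0.12 for *Tcf7* in pericytes, -0.49 to 0.23 for *Lef1*, -0.022 to 0.85 for *Tcf7*, -0.28 to 0.046 for *Fzd4* and -0.072 to 0.17 for *Nkd1* in astrocytes, and -0.63 to 1.04 for *Apcdd1* and -0.70 to 0.078 for *Nkd1* in microglia.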
